A study of Mus musculus with 4 samples.

Results

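The proteasome genes of mouse plasmacytoid dendritic cells (pDCs) were taken as the rows of the count table whose symbol is Psm, a letter from a to g and a number. That rule found 48 of 27179 genes, and 46 of them had enough counts to be tested, among 11706 genes tested in all. The interferon-inducible members Psmb8, Psmb9, Psmb10, Psme1 and Psme2 (5 genes, all tested) were set against the other 43 members, of which 41 were tested. The cells came from C57BL/6 bone marrow precursors grown for 8 days with Flt3 ligand, stimulated with 1 µg/ml of imiquimod, a TLR7 ligand, for 24 h, and sorted by SiglecH and CD11b. BFP-positive pDCs were compared with BFP-negative pDCs, with 2 libraries each, where BFP is a blue fluorescent protein that reports the chemokine gene Cxcl10. Both groups received imiquimod, no unstimulated library was analysed here, and the labels give neither the reporter allele nor the CD11b gate. The labels call the BFP-negative population CXCL10+BFP- while the design text calls it CXCL10-BFP-, so samples were grouped by the BFP part alone. Nothing in the labels says whether the libraries came from separate animals or cultures, so p-values measure the spread between these libraries, which may be technical.

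The proteasome is the barrel-shaped protease that degrades ubiquitin-tagged proteins and supplies peptides for MHC class I. Its 20S core has outer rings of α subunits (Psma genes) and inner rings of β subunits (Psmb genes), of which Psmb5, Psmb6 and Psmb7 encode the catalytic ones. Interferons induce the alternative catalytic subunits Psmb8 (LMP7), Psmb9 (LMP2) and Psmb10 (MECL-1), which take the places of Psmb5, Psmb6 and Psmb7 to form the immunoproteasome, and also the PA28 activator made of Psme1 and Psme2. The 19S cap, made of the Psmc ATPases and most of the Psmd non-ATPases, recognises and unfolds substrates, and the Psmg chaperones assemble the core. Dendritic cells are known to hold the inducible catalytic subunits even without stimulation.

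Library totals were 11868254 and 12497526 counts in the BFP-positive libraries and 12018387 and 12570117 in the BFP-negative libraries. Cxcl10 had 149 and 154 counts in BFP-positive cells, against 3 and 19 in BFP-negative cells, which checks the labels and is no finding because its reporter set the gate. The pDC genes Siglech (803 ± 25.0 against 613 ± 2.69 CPM, counts scaled to library size; SD, n = 2 each) and Bst2 (1706 ± 48.6 against 1717 ± 212 CPM) were abundant in both groups. For Siglech this is no finding either, because the cells were sorted by SiglecH. Of 13 pDC markers, all tested, 2 rose (Siglech and Ly6c2) and 4 fell (Ccr9, Ly6d, Cox6a2 and Klk1). Their summed level was 20202 to 21032 CPM in BFP-positive and 24617 to 29227 CPM in BFP-negative libraries. Ly6d alone held 13612 and 12571 CPM in BFP-positive and 17289 and 20947 CPM in BFP-negative libraries. The sum thus mostly follows Ly6d and does not describe the markers as a set. Markers of other cells moved with the sort. Of 12 conventional dendritic cell markers, 11 were tested, 4 rose and none fell, and their summed level was 1016 to 1077 CPM in BFP-positive and 748 to 749.7 CPM in BFP-negative libraries. Of 11 monocyte and macrophage markers, 9 were tested, 5 rose and 2 fell, C1qa had no count in any library, and the sum was 615 to 645 against 353 to 407 CPM. Of 5 B cell markers, 3 were tested and 2 fell, with sums of 2.88 to 4.55 CPM in BFP-positive and 26.4 to 30.9 CPM in BFP-negative libraries. Their part in the proteasome values below was not tested.

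Among the members, 1 gene rose and 1 fell in BFP-positive cells, by edgeR quasi-likelihood tests whose p-values were Benjamini-Hochberg adjusted over all tested genes (threshold 0.05). Psmb10, an inducible catalytic subunit, rose 1.36-fold, and Psmg1, a chaperone of core assembly, fell 1.57-fold. The other 44 tested members did not pass. Over all tested genes, 7.6% were called higher and 3.51% lower, so the members were called no more often than genes at large. The median log2 fold change of the 46 members was -0.03, against -0.02 for all tested genes, and their range was -0.65 to 0.44. Within the span of the members' mean levels, 21.5 to 4512 CPM, 15.5% of all 5805 tested genes were called. The 2 groups did not overlap in 22 of 46 members (47.8%), 7 higher and 15 lower, where 54.2% of all tested genes had no overlap, 27.1% in each direction. An unadjusted p under 0.05 was found for 9 of 46 members, against 24.5% of all tested genes. In whole libraries the 48 genes took 2.31% and 2.26% of the counts in BFP-positive cells and 2.36% and 2.36% in BFP-negative cells. In bulk RNA, fewer cells of a type and less RNA per cell cannot be told apart.

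**Figure D1:**
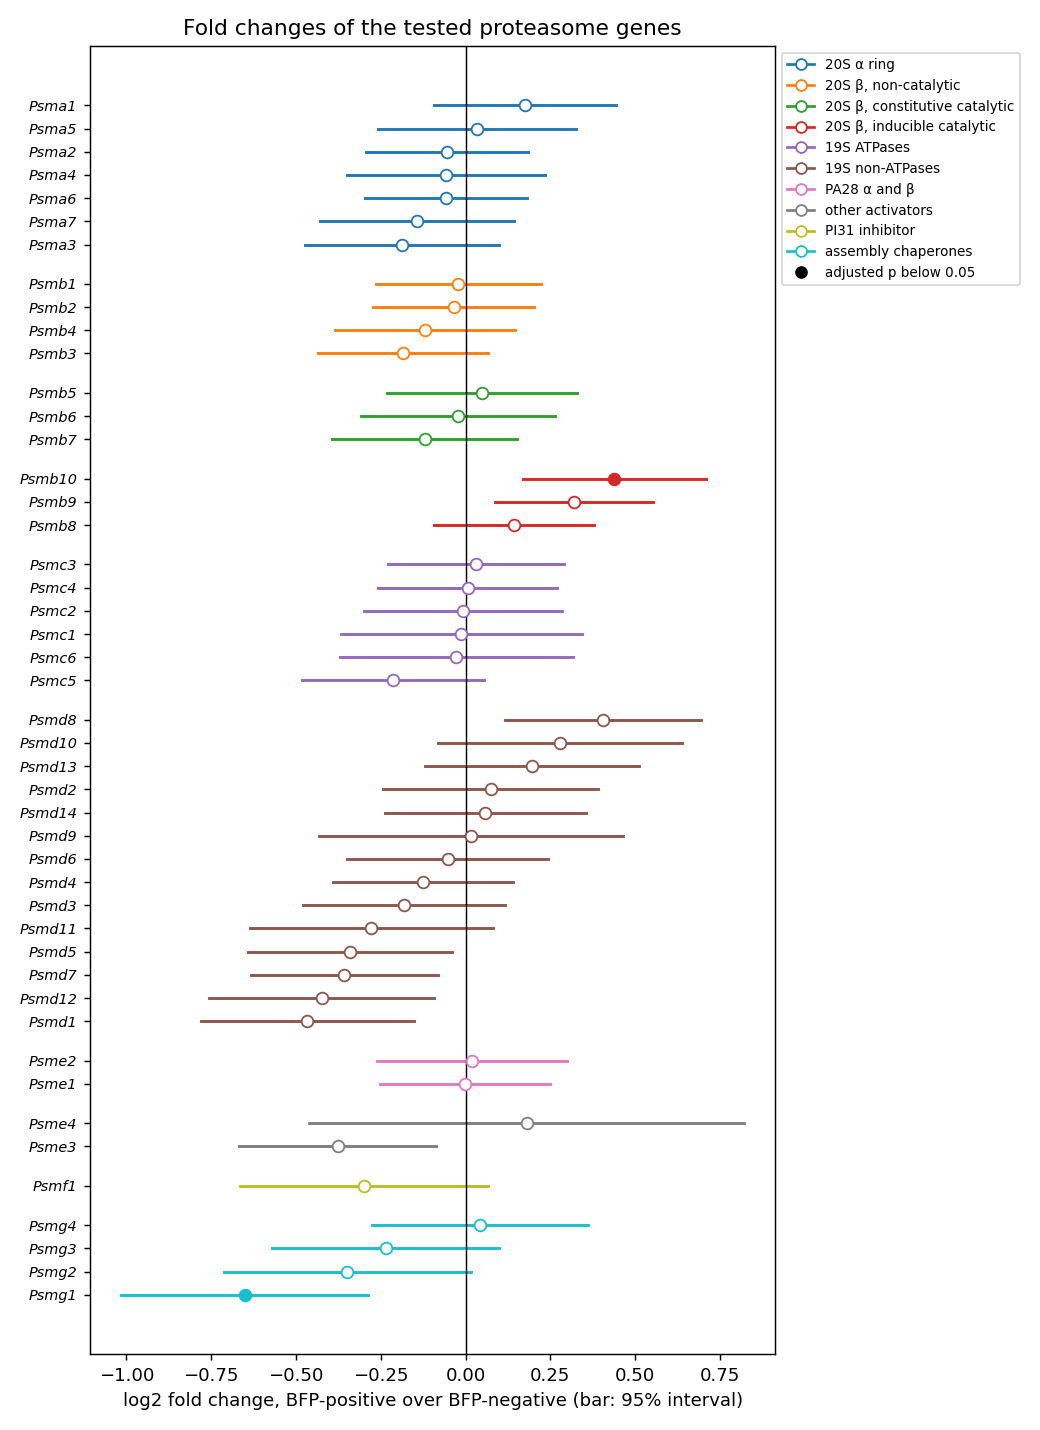
Log2 fold change of BFP-positive over BFP-negative cells (x axis) for each of the 46 tested members (rows, grouped by role), with points for the estimate and bars for its 95% interval. Filled points mark Psmb10 at 0.44 and Psmg1 at -0.65, the members past the threshold, and most other intervals span 0.

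Of the 3 inducible catalytic subunits, 1 rose in BFP-positive cells, and the others had positive estimates that did not pass in edgeR. Psmb10 (Entrez gene 19171, chromosome 8, 105935728 to 105938392 on GRCm38, whole gene with introns) encodes the counterpart of Psmb7. It was at 534 and 514 CPM in BFP-positive cells, against 364 and 409.9 CPM in BFP-negative cells. Both BFP-positive libraries lay above both BFP-negative ones. The log2 fold change was 0.44, SE 0.12, with a 95% interval of 0.17 to 0.71 and an edgeR adjusted p of 0.0437. That call was lost without BFP-positive replicate 1, BFP-positive replicate 2 or BFP-negative replicate 1 (adjusted p = 0.217, 0.151 and 0.147) and with library totals in place of TMM scaling or the deposited log2 RPKM values in limma (adjusted p = 0.0669 and 0.0838). Without BFP-negative replicate 2 it held, at 0.55 and adjusted p = 0.0229.

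Psmb9 (Entrez gene 16912, chromosome 17, 34182030 to 34187330) encodes the counterpart of Psmb6. It was at 1524 and 1526 CPM in BFP-positive cells, against 1184 and 1259.5 CPM in BFP-negative cells. The groups did not overlap, and the BFP-positive libraries lay close together. Its log2 fold change of 0.32, SE 0.10, 95% interval 0.09 to 0.55, did not pass in edgeR (adjusted p = 0.0804), while DESeq2 and limma-voom called it (adjusted p = 0.0229 and 0.0494). It did not pass in edgeR with library totals alone (adjusted p = 0.140) or with the deposited log2 RPKM values in limma. With 1 library left out, its estimate ran from 0.28 to 0.39.

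Psmb8 (Entrez gene 16913, chromosome 17, 34198195 to 34201454), the counterpart of Psmb5, was the most abundant member. It was at 4653 and 4817 CPM in BFP-positive cells, against 3951 and 4627 CPM in BFP-negative cells. The groups did not overlap, but BFP-negative replicate 2 lay just under the lower BFP-positive library. Its log2 fold change of 0.14, SE 0.11, had a 95% interval of -0.09 to 0.38 and did not pass (adjusted p = 0.466). Without BFP-negative replicate 2 the estimate was 0.28, and without BFP-negative replicate 1 it was 0.04.

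The PA28 genes, whose products form the ring-shaped cap that opens the core, showed no such difference. Psme1 (Entrez gene 19186, chromosome 14, 55578494 to 55581527) was at 554 and 585 CPM in BFP-positive cells, against 573 and 567 CPM in BFP-negative cells, with a 95% interval of -0.25 to 0.25 for the log2 fold change. Psme2 (Entrez gene 19188, chromosome 14, 55587440 to 55591101) was at 448 and 384 CPM in BFP-positive cells, against 421 and 400.4 CPM in BFP-negative cells, with an interval of -0.26 to 0.30. The BFP-positive values of both genes enclosed the BFP-negative ones. Neither passed in edgeR, DESeq2 or limma-voom, and neither had an unadjusted p under 0.05. Of the 5 inducible members, 1 rose in edgeR, and of the 41 other members 0 rose, where 7.6% of all tested genes did. An unadjusted p under 0.05 was found for 2 of the 5 and 7 of the 41, against 24.5% of all tested genes, and DESeq2 and limma-voom called 1 and 0 of the 41 higher. The difference between these counts was not tested. Their median log2 fold change was 0.14, against -0.05 for the other members. The distance between these medians was 0.20. It was 0.10 when BFP-negative replicate 1 was left out and 0.36 when BFP-negative replicate 2 was. It describes 3 catalytic genes with higher estimates and the PA28 pair near 0.

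**Figure D2:**
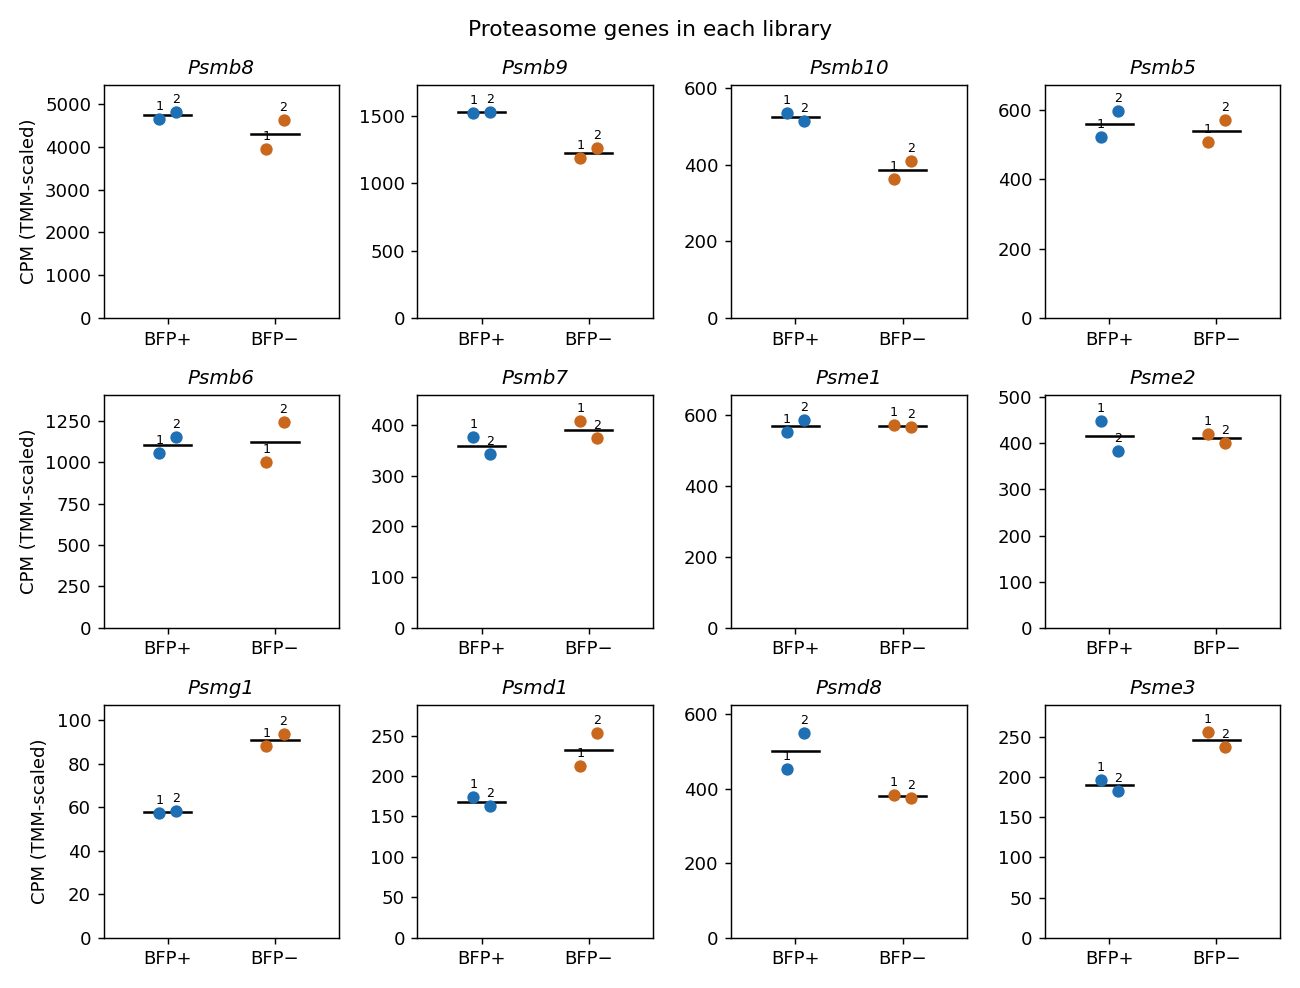
CPM (TMM-scaled, y axis from 0) of 12 members in the BFP-positive and BFP-negative libraries, with each point a library numbered by replicate and the bar the group mean. Psmb9 and Psmb10 show BFP-positive points above the BFP-negative ones, Psmg1 shows the reverse, and the points of Psmb5, Psmb6, Psmb7, Psme1 and Psme2 overlap between groups.

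The upstream sequences of the inducible catalytic genes are shown because interferon acts on them through short motifs known from earlier work, and Psmb5 is shown as the constitutive counterpart. Promoters were matched by symbol to RefSeq on GRCm38.p6 for 40 of the 48 members, and each window holds the 250 bases before the annotated start, on the strand of the gene. Capitals mark matches on either strand to GAAA and GAAA with any 2 bases between (the interferon-stimulated response element, ISRE, bound by IRF factors), TTCNNNGAA (the GAS element, an interferon-gamma response motif) or TGACNNNGC (the antioxidant response element, ARE, bound by Nfe2l1, a known driver of constitutive proteasome genes). The windows are chr17:34197945-34198194 on the plus strand for Psmb8, chr17:34187331-34187580 on the minus strand for Psmb9, chr8:105938393-105938642 on the minus strand for Psmb10 and chr14:54617996-54618245 on the minus strand for Psmb5.
Psmb8: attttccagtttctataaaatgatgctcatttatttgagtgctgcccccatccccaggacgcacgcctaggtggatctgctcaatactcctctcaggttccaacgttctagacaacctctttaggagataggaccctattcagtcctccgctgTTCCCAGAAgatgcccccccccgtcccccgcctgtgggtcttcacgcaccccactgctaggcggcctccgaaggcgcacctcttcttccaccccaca
Psmb9: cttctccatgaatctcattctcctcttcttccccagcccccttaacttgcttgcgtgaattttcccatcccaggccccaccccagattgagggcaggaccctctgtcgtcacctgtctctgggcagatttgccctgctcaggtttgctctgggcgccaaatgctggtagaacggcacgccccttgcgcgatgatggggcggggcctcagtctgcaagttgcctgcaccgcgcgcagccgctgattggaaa
Psmb10: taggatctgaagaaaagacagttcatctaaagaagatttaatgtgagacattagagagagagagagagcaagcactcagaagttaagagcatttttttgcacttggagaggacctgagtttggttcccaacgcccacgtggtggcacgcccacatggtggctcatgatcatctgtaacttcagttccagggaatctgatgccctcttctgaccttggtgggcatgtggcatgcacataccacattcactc
Psmb5: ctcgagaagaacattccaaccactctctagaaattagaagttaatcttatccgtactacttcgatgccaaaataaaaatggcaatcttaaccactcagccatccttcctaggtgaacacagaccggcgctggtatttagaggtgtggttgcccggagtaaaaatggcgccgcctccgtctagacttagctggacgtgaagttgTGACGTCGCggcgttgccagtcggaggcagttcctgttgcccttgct
Psmb8 held a GAS match, TTCCCAGAA, 97 to 89 bases before the start, which reads as a match on both strands. Psmb5 held an ARE match, TGACGTCGC, 47 to 39 bases before the start. The windows of Psmb9 and Psmb10 held none of the 3 motifs in these letters. Only the first listed start of each gene was searched, and sites outside the window or with other letters were not looked for. Among 27025 promoters of the same length, 3.04% held the ISRE, 7.18% the GAS and 10.1% the ARE letters. Of the 40 member promoters, 3 held the ISRE letters (Psmb3, Psmd4 and Psmd9), 2 the GAS letters (Psmb8 and Psmg1) and 5 the ARE letters (Psmb5, Psmb6, Psmc6, Psmd12 and Psmd9). No 2 of these motifs overlapped in the windows printed here.

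Psmb8 and Psmb9 lie in the MHC region of chromosome 17, interleaved with the peptide transporter genes. The annotated starts of Psmb9 and of Tap1, which points the other way, are 225 bases apart, so the Psmb9 window above spans this shared interval. Tap1 (chromosome 17, 34187556 to 34197225) was at 899 and 992 CPM in BFP-positive cells, against 716 and 752 CPM in BFP-negative cells (log2 fold change 0.36, SE 0.11, adjusted p = 0.0681), close to Psmb9 at 0.32, SE 0.10. Next to them, Psmb8 was at 0.14, SE 0.11, and Tap2 (34204479 to 34216321) at -0.09, SE 0.13.

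The constitutive catalytic subunits overlapped between groups. Psmb5 (chromosome 14, 54614120 to 54617995), the chymotrypsin-like subunit, was at 522 and 596 CPM in BFP-positive cells, against 507 and 573 CPM in BFP-negative cells. Psmb6 (chromosome 11, 70525324 to 70527858), the caspase-like subunit, was at 1054 and 1153 CPM in BFP-positive cells, against 1000.02 and 1244 CPM in BFP-negative cells. Psmb7 (chromosome 2, 38588046 to 38643952), the trypsin-like subunit, was at 376 and 343 CPM in BFP-positive cells, against 407 and 374 CPM in BFP-negative cells. Their log2 fold changes were 0.05, -0.02 and -0.12, with SE of 0.13, 0.13 and 0.12, and 95% intervals within -0.39 and 0.33. None had an unadjusted p under 0.05 or was called by edgeR, DESeq2 or limma-voom. RefSeq annotates pseudogenes of all 3, which may take or share their reads, so their levels are uncertain.

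Per gene length, each inducible subunit was compared with the one it replaces, as the ratio of counts per kilobase in the same library, with gene lengths taken from the deposited tables. Psmb10 over Psmb7 was 1.08 and 1.14 in BFP-positive cells, against 0.682 and 0.837 in BFP-negative cells. With these lengths, the inducible transcript was the higher of this pair in the BFP-positive libraries and the lower in the BFP-negative ones. In raw counts without length correction it stayed the higher in both BFP-positive libraries. The raw-count ratio was 0.893 and 1.096 in the BFP-negative libraries, so which transcript was the higher there depends on the lengths. It also rests on the uncertain level of Psmb7. Psmb9 over Psmb6 was 1.86 and 1.70 in BFP-positive cells, against 1.52 and 1.30 in BFP-negative cells, again without overlap. Psmb8 over Psmb5 was 6.35 and 5.76 in BFP-positive cells, against 5.55 and 5.75 in BFP-negative cells, where the second replicates of both groups were almost equal. On the log2 scale the differences were 0.56, 0.34 and 0.10. The exact two-sided permutation test gave p = 0.333 for each ratio, the smallest p that 2 against 2 libraries allow, also after Benjamini-Hochberg adjustment over the 3 ratios. Summed in RPKM (counts scaled for depth and gene length), the inducible genes held 75.3% and 74.4% of the 6 catalytic genes in BFP-positive cells. They held 71.7% and 71.6% in BFP-negative cells. Psmb8, whose fold change did not pass, made up most of the inducible sum. On average it held 3782 of 6034 RPKM in BFP-positive and 3581 of 5440 RPKM in BFP-negative cells. The share also rests on the uncertain levels of Psmb5, Psmb6 and Psmb7.

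**Figure D3:**
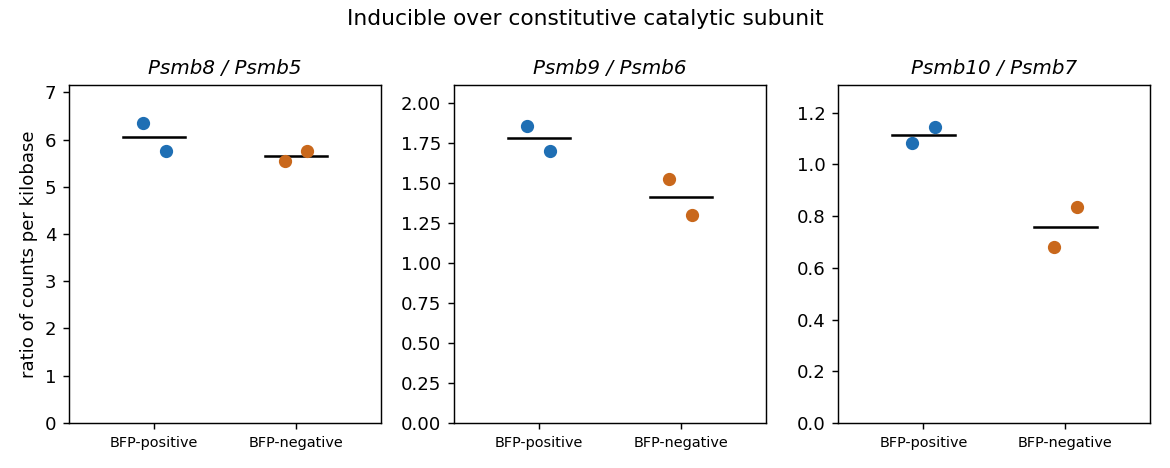
Ratio of counts per kilobase of each inducible catalytic gene to its constitutive counterpart (y axis from 0), with a point per library and a bar at the mean of 2. BFP-positive points lie above BFP-negative points for Psmb10 over Psmb7 (1.08 and 1.14 against 0.682 and 0.837) and Psmb9 over Psmb6, and nearly meet for Psmb8 over Psmb5.

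Among the α subunits, which form the gated outer rings, none of 7 tested genes passed in edgeR, DESeq2 or limma-voom, and none had an unadjusted p under 0.05. Psma1 had the highest estimate, at 830.1 and 774 CPM in BFP-positive cells, against 764 and 656 CPM in BFP-negative cells (log2 fold change 0.18, SE 0.12). Psma3 had the lowest, at 205 and 191 CPM in BFP-positive cells, against 227 and 224 CPM in BFP-negative cells (log2 fold change -0.19, SE 0.13). Neither pair of groups overlapped, but both intervals span 0. The non-catalytic β subunits Psmb1, Psmb2, Psmb3 and Psmb4 had estimates of -0.18 to -0.02. None of these 4 was called by the 3 tools or had an unadjusted p under 0.05. Psmb3 was the lowest, at 529.5 and 528 CPM in BFP-positive cells, against 584 and 619 CPM in BFP-negative cells.

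The tissue-restricted core subunits were near or at 0. Psmb11, the catalytic subunit of the thymus form, had no count in any library, which allows up to 3 counts, or 0.239 to 0.253 CPM by library totals, and covers counting error only. Psma8, an α subunit of the testis, had 1 and 22 counts in BFP-positive cells, against 0 and 6 in BFP-negative cells, too few to be tested.

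The 19S ATPases, which unfold substrates and open the core, had estimates of -0.21 to 0.03 on the log2 scale. None of 6 was called by edgeR, DESeq2 or limma-voom, and none had an unadjusted p under 0.05. Psmc5 was the lowest, at 272 and 289 CPM in BFP-positive cells, against 325 and 326 CPM in BFP-negative cells. Psmc3 was the highest, at 367 and 359 CPM in BFP-positive cells, against 349 and 362 CPM in BFP-negative cells, and these groups overlapped.

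The 14 Psmd genes are 19S non-ATPase subunits together with chaperones of 19S base assembly such as Psmd5. They varied more among themselves, from -0.47 to 0.40 on the log2 scale, and none passed in edgeR. Of these genes, 5 had an unadjusted p under 0.05 (24.5% of all tested genes did), DESeq2 called 1 higher and 1 lower, and limma-voom called none. In 10 of these genes the libraries of both groups lay apart, 3 higher and 7 lower in BFP-positive cells, where 54.2% of all tested genes did, 27.1% each way. Psmd1, the large scaffold subunit, was at 174 and 163 CPM in BFP-positive cells, against 213 and 253 CPM in BFP-negative cells (log2 fold change -0.47, SE 0.14, adjusted p = 0.0626). With library totals alone, with a filter of 5 CPM and in DESeq2 it passed (adjusted p = 0.0330, 0.0361 and 0.0273), and without BFP-negative replicate 1 also (0.0319), whereas without BFP-negative replicate 2 its estimate was -0.31.

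Psmd8, a lid subunit, was at 454 and 549.8 CPM in BFP-positive cells, against 383 and 375 CPM in BFP-negative cells (log2 fold change 0.40, SE 0.13, adjusted p = 0.0773). In DESeq2 and with the 5 CPM filter it passed (adjusted p = 0.0192 and 0.0492), and with BFP-positive replicate 2 left out its estimate was 0.26. Psmd7, a lid subunit that pairs with the deubiquitinase Psmd14, was at 221 and 214 CPM in BFP-positive cells, against 283 and 274 CPM in BFP-negative cells (log2 fold change -0.36, SE 0.12). Psmd12, another lid subunit, was at 92.9 and 89.9 CPM in BFP-positive cells, against 127 and 118 CPM in BFP-negative cells (log2 fold change -0.42, SE 0.15). Psmd14 itself had an estimate of 0.06, SE 0.13. Psmd5, a chaperone of 19S base assembly, had -0.34, SE 0.14.

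Of the remaining regulators, Psme3, which encodes the nuclear activator PA28γ, was at 197 and 183 CPM in BFP-positive cells, against 255 and 238 CPM in BFP-negative cells (log2 fold change -0.38, SE 0.13). The groups did not overlap, and it did not pass in edgeR (adjusted p = 0.0981), DESeq2 or limma-voom. Psme4, the large activator PA200, was the lowest tested member, at 22.7 and 22.9 CPM in BFP-positive cells, against 24.5 and 15.8 CPM in BFP-negative cells. Psmf1, the inhibitor PI31, was at 80.5 and 69.1 CPM in BFP-positive cells, against 91.1 and 93.0 CPM in BFP-negative cells (log2 fold change -0.30, SE 0.16, adjusted p = 0.302).

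Of the 4 chaperones of core assembly, 1 fell and 3 did not pass. Psmg1 (Entrez gene 56088, chromosome 16, 95979933 to 95990960), which pairs with Psmg2 to build the α ring, was at 57.4 and 58.3 CPM in BFP-positive cells, against 88.0 and 93.8 CPM in BFP-negative cells. The libraries of each group lay close together and the groups were far apart. The log2 fold change was -0.65, SE 0.16, with a 95% interval of -1.02 to -0.29 and an edgeR adjusted p of 0.0295. DESeq2 and limma-voom called it too, and it held without BFP-negative replicate 1 (adjusted p = 0.0481). Without BFP-positive replicate 1, BFP-positive replicate 2 or BFP-negative replicate 2 the call was lost (adjusted p = 0.129, 0.123 and 0.100), with estimates of -0.64, -0.66 and -0.58. Its partner Psmg2 was at 92.2 and 75.6 CPM in BFP-positive cells, against 108 and 105 CPM in BFP-negative cells (log2 fold change -0.35, SE 0.16, adjusted p = 0.226). Psmg3 had -0.24, SE 0.15, and its partner Psmg4 0.04, SE 0.14.

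Levels per gene length differed widely among subunits of the same particle. In RPKM, taken back from the deposited log2 values, Psmb8 averaged 3782 in BFP-positive and 3581 in BFP-negative cells, rank 17 of 27179 genes over all libraries. Psmb9 and Psmb2 followed at ranks 51 and 53. Among the α genes the mean ran from 135 (Psma3) to 1482 RPKM (Psma6) in BFP-positive cells and from 161 to 1615 RPKM in BFP-negative cells. The median over the 17 tested core genes was 707 RPKM in BFP-positive and 840.3 RPKM in BFP-negative cells. It lay above that of the 20 Psmc and Psmd genes, at 105 RPKM in BFP-positive and 112 RPKM in BFP-negative cells. These 20 are not cap subunits alone, as they include chaperones of 19S base assembly such as Psmd5. The PA28 pair had a median of 493 RPKM in BFP-positive and 513 RPKM in BFP-negative cells, between the core genes and the Psmc and Psmd genes in both. The Psmg chaperones had a median of 95.3 RPKM in BFP-positive and 121 RPKM in BFP-negative cells. These chaperones thus lay below the 105 RPKM of the Psmc and Psmd genes in BFP-positive cells and above their 112 RPKM in BFP-negative cells. In BFP-negative cells that order depends on which Psmd genes are counted as cap subunits.

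**Figure D4:**
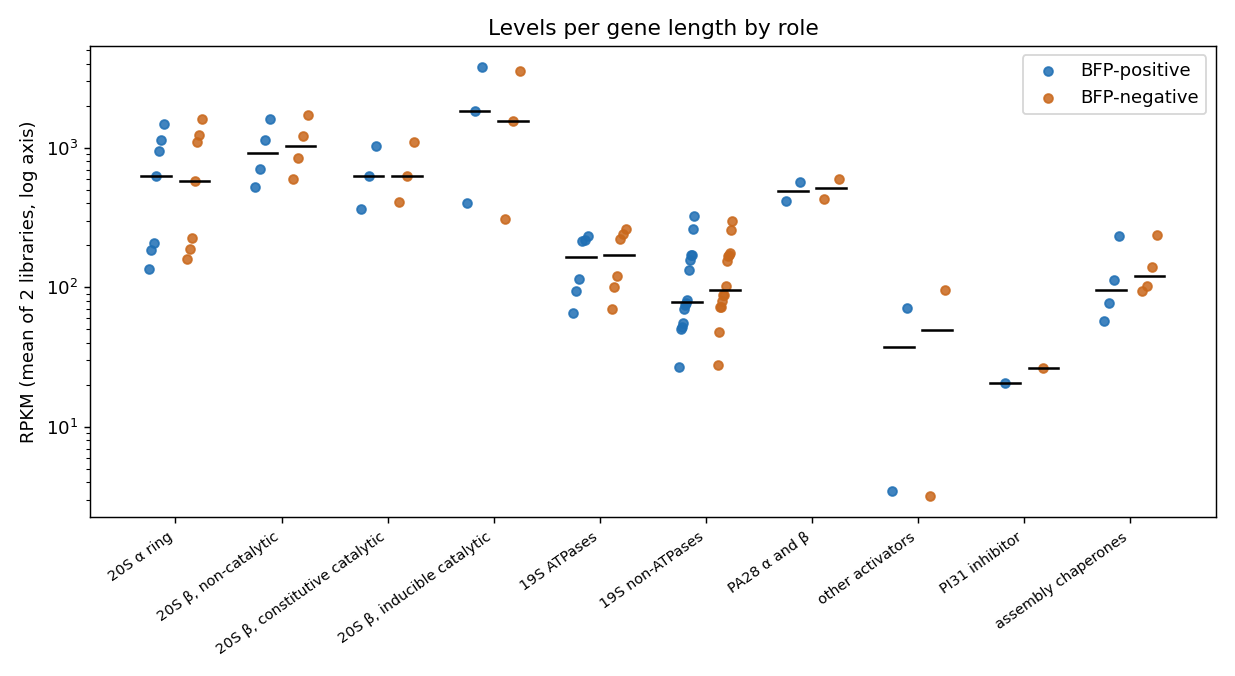
RPKM (mean of 2 libraries, log axis) of each tested member by role, with BFP-positive to the left of BFP-negative and bars at the median of each role. Core subunits start at 135 (Psma3, BFP-positive), 19S ATPases have medians of 165 (BFP-positive) and 172 (BFP-negative), Psmb8 stands highest at 3782 and 3581, and Psme4 lowest.

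Of 25 genes that work with the proteasome but carry other names, 24 were tested and none passed in edgeR, where 11.1% of all tested genes did. An unadjusted p under 0.05 was found for 4 of them, against 24.5% of all tested genes. DESeq2 called 1 of them lower and limma-voom called none. The median log2 fold change of these 24 genes was -0.16. Pomp, the maturation factor of the core, was at 408 ± 56.7 CPM in BFP-positive and 382 ± 54.1 CPM in BFP-negative cells. Uchl5, a deubiquitinase bound to the 19S cap, was at 77.0 ± 7.98 CPM in BFP-positive and 109.9 ± 11.5 CPM in BFP-negative cells (log2 fold change -0.51, SE 0.17, adjusted p = 0.0788). Nfe2l1, which drives proteasome genes when degradation is impaired, was at 36.0 ± 8.27 CPM in BFP-positive and 40.1 ± 0.137 CPM in BFP-negative cells.

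Of 7 interferon factors known to act on the inducible subunits, 1 rose, Irf1, at 185 and 188 CPM in BFP-positive cells, against 95.1 and 103 CPM in BFP-negative cells (log2 fold change 0.91, SE 0.14, adjusted p = 0.00266). Nlrc5, the class I transactivator, was at 20.4 ± 7.42 CPM in BFP-positive and 30.0 ± 11.9 CPM in BFP-negative cells and did not pass. Of 11 genes of peptide transport and class I loading, B2m and H2-D1 rose and Pdia3 fell, with log2 fold changes of 0.42, 0.45 and -0.69 and adjusted p = 0.0234, 0.0392 and 0.00366. Over all tested genes, edgeR called 11.1% in either direction. An unadjusted p under 0.05 was found for 7 of these 11, against 24.5% of all tested genes. DESeq2 and limma-voom each called 3 of them higher and 2 lower. The median of these 11 was -0.03, with estimates from -0.69 to 0.45.

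**Figure D5:**
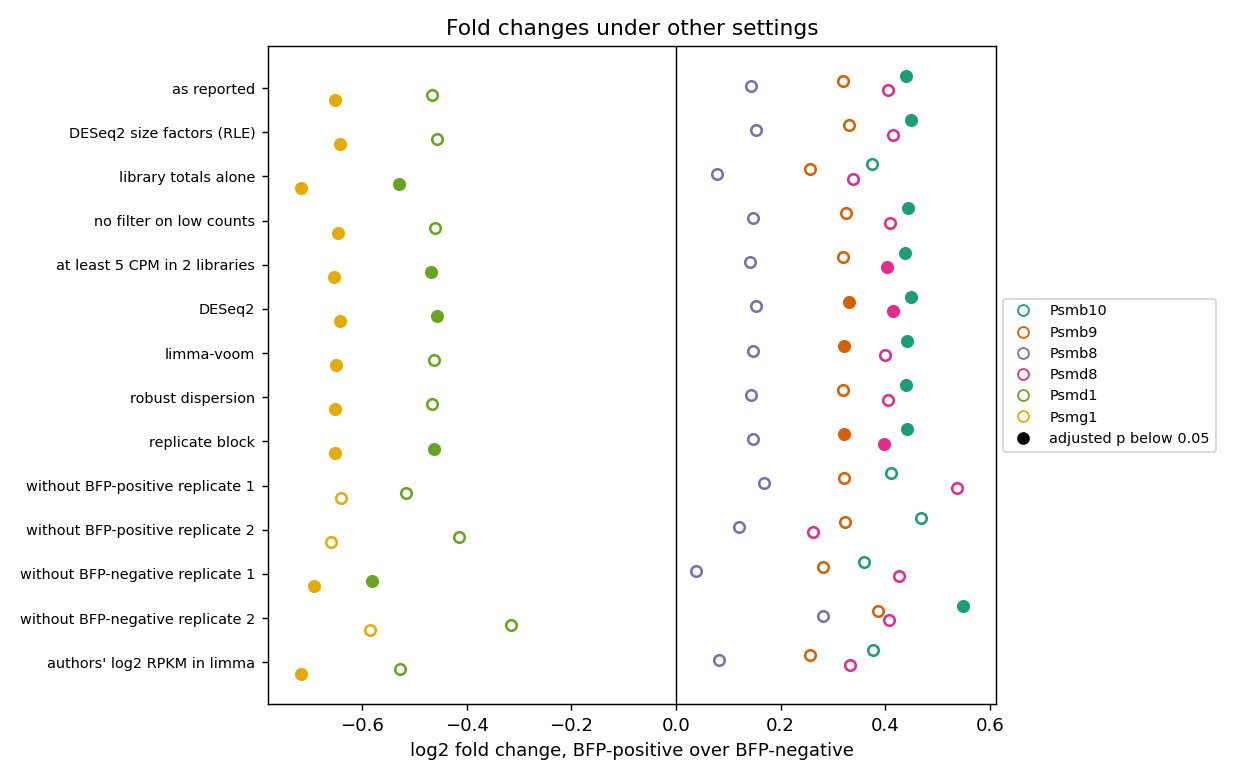
Log2 fold change (x axis) of 6 members under each setting (rows), with filled points where the adjusted p was below 0.05. Psmb10 stays between 0.36 and 0.55 and Psmg1 between -0.72 and -0.58, while their calls come and go when single libraries are left out.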

How the data were processed

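Libraries were made with the SMART-Seq v4 kit, which amplifies full-length cDNA without marking strand or molecules, per the labels' protocols. The authors deposited raw counts per Entrez gene and log2 RPKM values per library. Subread, featureCounts and limma, with builds GRCm38 and mm10, are named in the submitters' processing notes. Not given in the sources used here are their versions and how multi-mapped reads were handled. The deposited log2 RPKM values equal counts plus a prior of 0.25 over library total and 1 length per gene, which supplied the gene lengths.

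Genes were kept by filterByExpr (minimum count 10, minimum total 15). BFP-positive was tested against BFP-negative by edgeR 4.0.16 (R 4.3.3) with TMM scaling, quasi-likelihood and the group as the only term, leaving 2 residual degrees of freedom. P-values were two-sided with Benjamini-Hochberg adjustment over 11706 genes. An SE is the log2 fold change over the square root of F, and 95% intervals use it. CPM are TMM-scaled. Fits were tested on simulated data with planted changes larger than any member estimate here, so changes of the members' size were not covered. DESeq2 1.42.0, limma 3.58.1 (voom), other scalings, filters, robust dispersion, the replicate block and each library left out were alternatives. The members and lists were chosen with earlier results of these data known. Named genes are the 5 inducible and 3 constitutive catalytic members, those past the threshold, the next 5 by p and the extremes of each role. Psmd5, Psmd14, Psmg2, Psmg3 and the uncalled pathway genes with values (Pomp, Uchl5, Nfe2l1, Nlrc5, Tap1 and Tap2) were added after their values were seen. Positions are RefSeq genes on GRCm38.p6. Replicates were distinct libraries (chi-square per degree of freedom 15.2 in BFP-positive and 19.5 in BFP-negative). The spans of 12 members overlap another gene and 4 members have named pseudogenes, so their counts are uncertain. Values of some marker and pathway genes are not reported here.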

Additional observations from a re-analysis of the deposited data

How the results depend on the processing

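The count of members called was small and moved with most settings. With library totals alone 0 members were higher and 2 lower, and over all genes 813 and 574. With a filter of 5 CPM in 2 libraries the members were 2 and 2, and all genes 904 and 549. In DESeq2 the members were 3 and 2, and all genes 1036 and 561. In limma-voom the members were 2 and 1, and all genes 918 and 453. The fit reported above called 890 genes higher and 411 lower. With 1 library left out, members called ran from 0 to 1 higher and 0 to 2 lower, and all genes from 559 to 921 higher and 245 to 408 lower. There the lone library was assumed to vary like the other group. The distance between the medians of the inducible and the other members ran from 0.10 to 0.36. With the replicate number as a block, 3 members were higher and 6 lower, and over all genes 1140 were higher and 760 lower. Beside Psmb10 and Psmg1 (adjusted p = 0.00744 and 0.0128 in edgeR with the block), Psmb9, Psmd8, Psmd1, Psme3, Psmd7 and Psmd12 then passed (adjusted p = 0.00937, 0.0182, 0.0208, 0.0263, 0.0289 and 0.0458), as did Psmd5. Same-numbered libraries share a code in their titles whose meaning is not given. Their deviations from the group means correlated at 0.069 over all tested genes and 0.24 over the 46 members, so whether the numbers pair the libraries is not known. Uncalled estimates near 0 changed sign. Psme1 became 0.0083 with DESeq2 size factors, 0.0032 with no filter and 0.0083 in DESeq2. Library totals gave Psme2 -0.047, Psmb5 -0.015, Psmg4 -0.023 and Psmc3 -0.034, and the authors' log2 RPKM values in limma gave -0.051, -0.016, -0.022 and -0.035 for these genes. With 1 library left out, Psme1 ran from -0.039 to 0.038, Psme2 from -0.097 to 0.13, Psmb5 from -0.047 to 0.16, Psmb6 from -0.17 to 0.16, Psmb1 from -0.083 to 0.041 and Psme4 from -0.083 to 0.54. The cause was not tested. Psmb10 and Psmg1 kept their direction in every setting run. Low counts kept Psma8 and Psmb11 from being tested in the fit reported above. With no filter on low counts Psma8 was included, while Psmb11, with no count, was not.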
